A study of Homo sapiens with 4 samples.

Results

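The genes described here are 45 named components of the folding and translocation machinery of the endoplasmic reticulum (ER), taken by name from the 39306 gene names of the deposited tables. They comprise 13 chaperones and co-chaperones, 7 disulfide isomerases, 9 genes of ER-associated degradation, 3 genes of the unfolded protein response (2 sensors and XBP1), 6 genes of the SEC61 translocon and 7 of the signal recognition particle and its receptor. RNA was sequenced after ribosomal RNA depletion from the established cell line MHCC97H, a human liver cancer line, in 2 control libraries of wild-type cells and 2 knockdown libraries of cells with a short hairpin RNA against HNRNPM, an RNA-binding splicing regulator. The labels name no control hairpin, and they do not say whether the knockdown libraries carried the same hairpin or came from separate cultures. P-values here therefore speak of library-to-library spread, and that spread may be technical.

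Proteins bound for secretion or for membranes are recognised by the signal recognition particle as they leave the ribosome, handed to its receptor on the ER, and threaded through the SEC61 channel. Inside the ER, chaperones bind the unfolded chain, disulfide isomerases form and reshuffle its cysteine bonds, and chains that fail to fold are sent back to the cytosol for degradation. When unfolded protein accumulates, the sensors IRE1 (encoded by ERN1), ATF6 and PERK start the unfolded protein response, which raises transcription of many chaperone and degradation genes. Hepatocytes are heavily secreting cells and depend on this machinery.

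Levels were deposited as RPKM, which counts reads relative to exon length and to the library's assigned reads, and the libraries held 11498663 to 19659106 assigned reads, with both knockdown libraries shallower than both controls. HNRNPM, the targeted gene (chromosome 19, 8444767 to 8489114), was at 51.3 and 51.6 RPKM in the controls and at 21.8 and 20.4 RPKM in the knockdown libraries, a log2 fold change of -1.35 ± 0.07 (SE, limma adjusted p = 0.00270). Its exons share 345 bp with an antisense gene. Of 17 hepatocyte and hepatoma markers, 12 reached 1 RPKM in the controls. KRT8 and KRT18 made up most of their summed level of 855 to 951 RPKM in the controls and 1144 to 1186 RPKM in the knockdown libraries, while AFP stayed at or below 0.436 RPKM and ALB was at 5.35 and 6.28 RPKM in the controls against 1.75 and 1.78 RPKM. Plasma cells are rich in ER folding genes, and of the 3 plasma cell markers in the tables MZB1 and TNFRSF17 were at or below 1.01 RPKM in every library. The plasma cell list summed to 95.9 and 112 RPKM in the controls and to 52.0 and 53.4 RPKM in the knockdown libraries, almost all of it SDC1. The 3 blood and immune markers in the tables summed to 46.5 and 57.9 RPKM in the controls and to 61.9 and 60.1 RPKM in the knockdown libraries, almost all of it CD68, while PTPRC was listed at 0 in 3 libraries and at 0.0376 RPKM in knockdown replicate 1. The 5 fibroblast markers summed to 1.26 and 1.44 RPKM in the controls and to 3.62 and 3.41 RPKM in the knockdown libraries, with LUM, COL1A1 and PDGFRB called higher. The 4 endothelial markers summed to 9.55 and 10.2 RPKM against 6.78 and 7.19 RPKM, most of it PECAM1. PECAM1 was called lower, as was CDH5, which rested on 10 to 39 reads a library. KDR went the other way, from 0.637 and 0.772 RPKM to 0.754 and 1.01 RPKM, but was not called and its groups overlapped. VWF was too low to be tested. Without any 1 of the libraries COL1A1, PDGFRB and CDH5 were not called, at adjusted p values of 0.110 to 0.136, 0.0571 to 0.0905 and 0.0967 to 0.125. The part of these lists in the results was not tested.

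All 45 genes passed the filter on low values. In the knockdown libraries 22 were lower and 3 were higher at a limma adjusted p of 0.05, and 20 were not called. Thus 48.9% of them were lower and 6.67% higher, whereas 13.8% of the 20221 genes tested were lower and 11.1% were higher. Without scaling by TMM factors the split over all genes turned to 2234 lower and 2783 higher, from 2792 lower and 2240 higher, and that of the 45 genes became 18 lower and 3 higher. Because 43 of the 45 averaged at least 2 RPKM, the share among genes at that level is the closer background, and it was 17.7% lower and 13.4% higher. The roles and lists below are set beside the shares of all genes tested, which are smaller than those of this closer background. The median log2 fold change of the 45 genes was -0.353 and that of all genes tested was -0.0313. After scaling, the groups did not overlap for 31 of the 45 genes with lower and 5 of the 45 with higher knockdown values. Among all genes tested these shares were 36.6% and 31%. In bulk RNA, fewer cells of a type and less RNA per cell cannot be told apart.

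**Figure D1:**
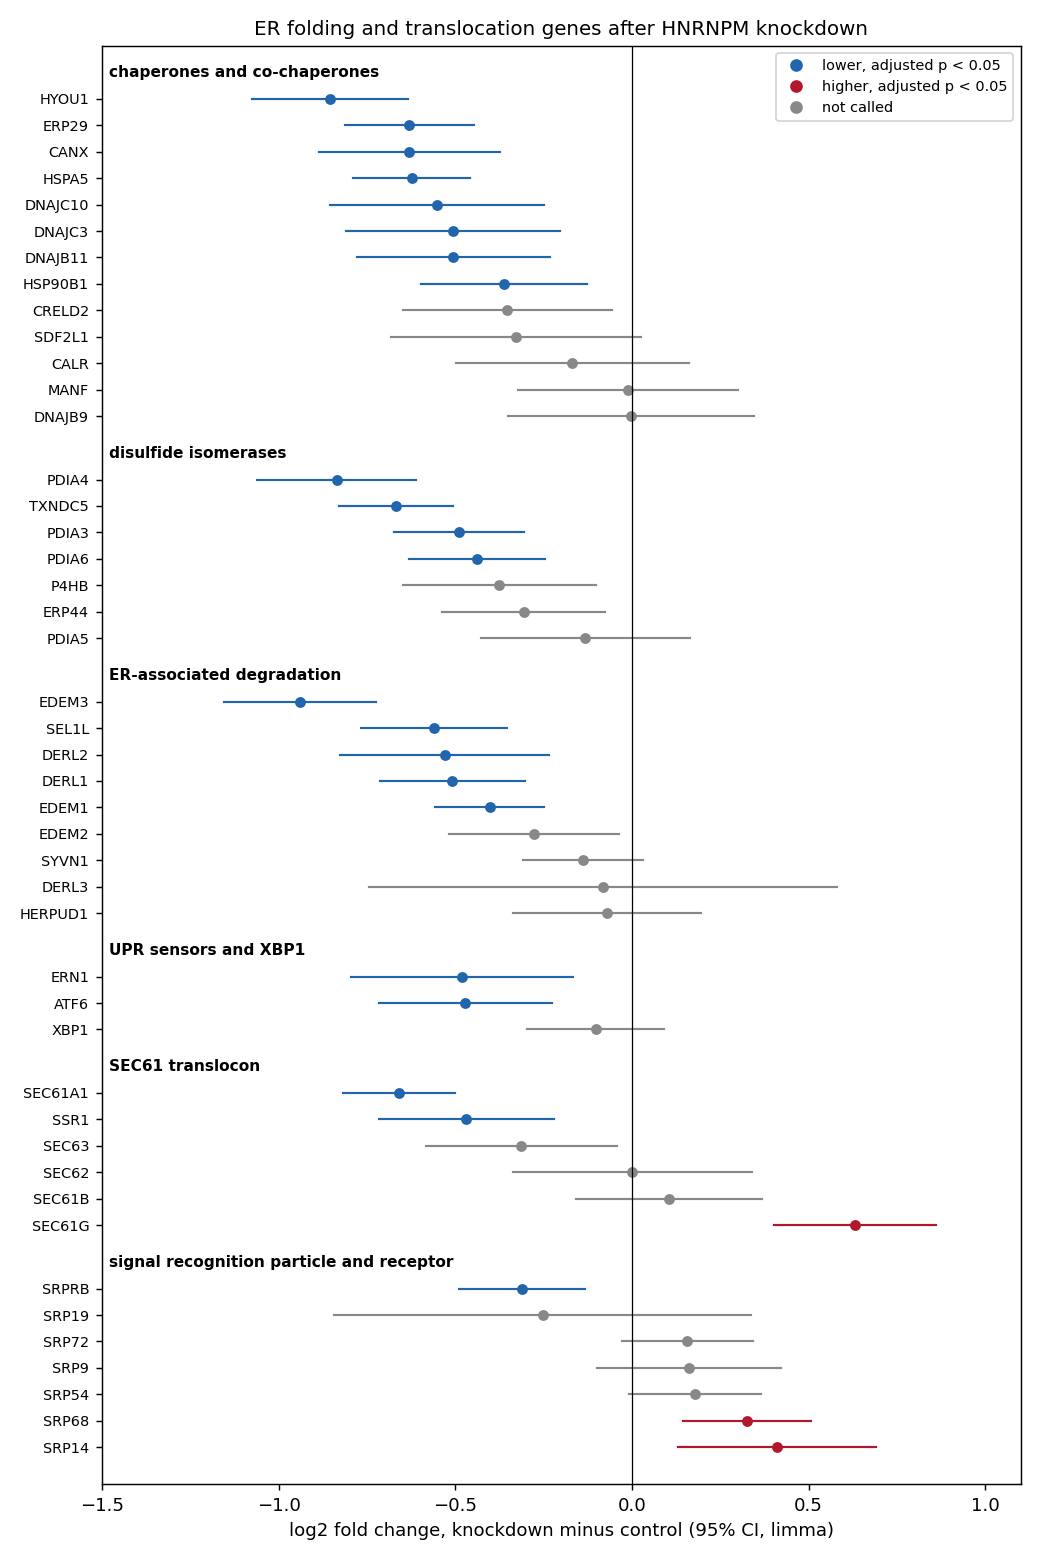
Log2 fold change (x axis, knockdown minus control) of each of the 45 genes by role, with limma's 95% confidence interval as the bar; blue points were lower and red points higher at an adjusted p under 0.05, and grey points were not called. Chaperones, isomerases and degradation genes lie at or left of 0, and the 3 higher genes are SEC61G, SRP68 and SRP14.

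Of the 13 chaperones and co-chaperones, 8 fell (61.5%) and none rose, against 13.8% and 11.1% of all genes tested. Their median log2 fold change was -0.505. HSPA5 (BiP, chromosome 9, 125234853 to 125241330) is the main ER Hsp70 chaperone and holds the stress sensors inactive. It was at 114 and 117 RPKM in the controls and at 79.9 and 77.1 RPKM in the knockdown libraries. Both knockdown libraries lay well below both controls, with a log2 fold change of -0.62 ± 0.07 (adjusted p = 0.00537). HYOU1, the large Hsp70-like protein that exchanges nucleotide on BiP, fell furthest of the chaperones. Its level was 41.1 and 46.6 RPKM in the controls and 24.8 and 25.7 RPKM in the knockdown libraries, which is -0.85 ± 0.09 on the log2 scale (adjusted p = 0.00528). ERP29, a thioredoxin-fold chaperone of secretory proteins, went from 47.1 and 51.0 RPKM to 33.2 and 32.9 RPKM (-0.63 ± 0.07, adjusted p = 0.00610).

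These 3 chaperones kept their call whichever single library was left out, and the other 5 that fell did not. CANX, the membrane lectin calnexin that holds newly glycosylated proteins, was at 183 and 217 RPKM in the controls and at 135 and 134 RPKM in the knockdown libraries (-0.63 ± 0.10, adjusted p = 0.0129). Leaving out knockdown replicate 1 or 2 raised its adjusted p to 0.0545 or 0.0516. HSP90B1, the ER Hsp90 known as GRP94, was at 198 and 227 RPKM in the controls and at 174 and 171 RPKM in the knockdown libraries (-0.36 ± 0.09, adjusted p = 0.0429). Its controls differed from each other by about as much as control replicate 1 did from the knockdown libraries, and its adjusted p was 0.0628 without control replicate 2, 0.178 without knockdown replicate 1 and 0.174 without knockdown replicate 2. It was not called without TMM scaling.

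The J-domain co-chaperones, which bring clients to BiP and stimulate its ATPase, moved unevenly. DNAJB11 was at 8.60 and 7.54 RPKM in the controls and at 6.30 and 5.52 RPKM in the knockdown libraries (-0.50 ± 0.11, adjusted p = 0.0268). DNAJC3, also an inhibitor of the kinase PERK, was at 4.12 and 4.22 RPKM against 3.29 and 2.80 RPKM (-0.51 ± 0.12, adjusted p = 0.0355). DNAJC10, which is a disulfide reductase as well, was at 2.96 and 3.03 RPKM against 2.19 and 2.02 RPKM (-0.55 ± 0.12, adjusted p = 0.0277). All of them were lower in both knockdown libraries, but DNAJC3 and DNAJC10 failed the threshold whichever library was left out, at adjusted p values of 0.0527 to 0.132 and 0.0702 to 0.106. DNAJB11 failed it without control replicate 1 (0.0939), control replicate 2 (0.0519) or knockdown replicate 2 (0.101). DNAJB9, the J protein that restrains IRE1, was at 5.39 and 4.75 RPKM in the controls and at 5.94 and 4.69 RPKM in the knockdown libraries, so its groups overlapped (adjusted p = 0.990).

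The remaining chaperones were not called. CALR, the soluble lectin calreticulin, was at 276 and 347 RPKM in the controls and at 280 and 296 RPKM in the knockdown libraries (-0.17 ± 0.13, adjusted p = 0.387). Its 95% interval ran from -0.50 to 0.16, so a fall as large as that of its membrane-bound relative CANX lay outside the interval; the difference between these genes was not itself tested. MANF, a BiP cofactor that is secreted under stress, was at 10.9 and 9.49 RPKM against 11.7 and 9.52 RPKM (adjusted p = 0.961). SDF2L1, a component of BiP complexes, was at 14.7 and 10.97 RPKM against 10.2 and 10.8 RPKM (adjusted p = 0.144), with control replicate 1 standing above the other libraries. Without control replicate 2 it was called, at an adjusted p of 0.0370. CRELD2, a stress-induced ER protein, was at 4.59 and 4.90 RPKM against 3.61 and 4.13 RPKM (-0.35 ± 0.12, adjusted p = 0.0818). With limma-voom on the recovered reads it was called lower (0.0135).

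**Figure D2:**
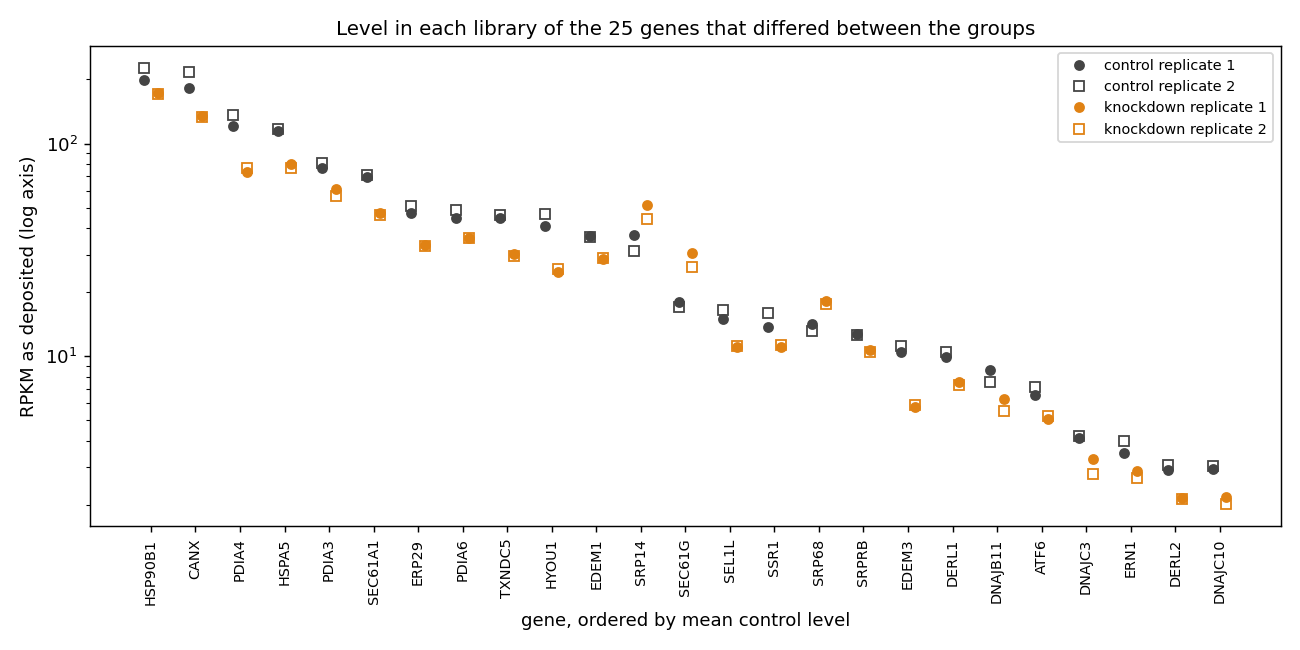
Deposited RPKM (y axis, log scale) in each of the 4 libraries for the 25 genes called in either direction, ordered by mean control level; grey symbols are controls and orange symbols knockdown libraries, circles replicate 1 and squares replicate 2. The orange symbols lie below the grey ones except for SRP14, SEC61G and SRP68.

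Among the 7 disulfide isomerases 4 fell (57.1%) and none rose, against 13.8% and 11.1% of all genes tested. Their median log2 fold change was -0.438. PDIA4 (ERp72), an isomerase with an extra thioredoxin domain, was at 120 and 136 RPKM in the controls and at 73.1 and 76.7 RPKM in the knockdown libraries (-0.84 ± 0.09, adjusted p = 0.00557). TXNDC5 (ERp46) was at 44.7 and 46.3 RPKM against 30.1 and 29.7 RPKM (-0.67 ± 0.06, adjusted p = 0.00464). Both were called whichever library was left out. However, 60.6% of the exon length of TXNDC5 is shared with a readthrough transcript on the same strand, so its reads may be divided between them. PDIA3 (ERp57), which works with calnexin and calreticulin on glycoproteins, was at 77.0 and 81.2 RPKM against 61.1 and 56.7 RPKM (-0.49 ± 0.07, adjusted p = 0.0106). PDIA6 (P5) was at 44.4 and 48.8 RPKM against 35.9 RPKM in both knockdown libraries (-0.44 ± 0.08, adjusted p = 0.0156). PDIA3 was not called without knockdown replicate 2 (0.0624), and PDIA6 was not called without knockdown replicate 1 (0.0749) or 2 (0.0631).

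P4HB, the founding protein disulfide isomerase and a subunit of prolyl hydroxylase, was the most abundant of the 45 genes. Its level was 374 and 435 RPKM in the controls and 318 and 333 RPKM in the knockdown libraries, with both knockdown libraries below both controls (-0.37 ± 0.11, adjusted p = 0.0578). It crossed the threshold without control replicate 1 (0.0247) and with limma-voom on the recovered reads (0.000793). ERP44, which retrieves oxidases and immature antibodies through their thiols, was at 6.24 and 5.80 RPKM against 5.01 and 5.12 RPKM (adjusted p = 0.0635; 0.0192 with limma-voom). PDIA5 was at 8.03 and 9.68 RPKM against 8.16 and 8.65 RPKM, and its groups overlapped (adjusted p = 0.451).

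ER-associated degradation was represented by 9 genes, of which 5 fell (55.6%) and none rose, against 13.8% and 11.1% of all genes tested. EDEM3, which trims mannose from misfolded glycoproteins to mark them for removal, fell the most of all 45 genes. The gene lies on chromosome 1 at 184690231 to 184754913. It was at 10.5 and 11.1 RPKM in the controls and at 5.75 and 5.93 RPKM in the knockdown libraries (-0.94 ± 0.09, adjusted p = 0.00434). Its relative EDEM1 was at 36.6 and 36.3 RPKM against 28.8 and 28.9 RPKM (-0.40 ± 0.06, adjusted p = 0.0112), and was not called without knockdown replicate 1 (0.0733) or 2 (0.0607). EDEM2, which makes the first mannose cut, was at 23.6 and 26.4 RPKM against 20.5 and 22.6 RPKM (-0.28 ± 0.10, adjusted p = 0.0882, and 0.0234 with limma-voom). The 95% interval of EDEM3, -1.16 to -0.72, did not overlap those of EDEM1 (-0.56 to -0.25) and EDEM2 (-0.52 to -0.04); a difference between the relatives was not itself tested.

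SEL1L, the adaptor that stabilises the ubiquitin ligase HRD1, was at 15.003 and 16.4 RPKM in the controls and at 11.05 and 11.2 RPKM in the knockdown libraries (-0.56 ± 0.08, adjusted p = 0.0101), and it kept its call whichever library was left out. SYVN1, which encodes HRD1 itself, was at 17.1 and 17.3 RPKM against 16.2 and 16.4 RPKM (-0.14 ± 0.07, adjusted p = 0.188). HERPUD1, a stress-induced partner of the same ligase, was at 3.54 and 3.38 RPKM against 3.37 and 3.51 RPKM (-0.07 ± 0.11, adjusted p = 0.664), and its deposited values overlapped. Of the derlins, membrane proteins of the exit route, DERL1 was at 9.91 and 10.4 RPKM against 7.57 and 7.32 RPKM (-0.51 ± 0.08, adjusted p = 0.0124). DERL2 was at 2.93 and 3.07 RPKM against 2.16 and 2.12 RPKM (-0.53 ± 0.12, adjusted p = 0.0292). DERL1 missed the threshold without knockdown replicate 2 (0.0536) and DERL2 missed it whichever library was left out (0.0799 to 0.113). DERL3 rested on 9 to 22 reads a library, at 0.187 and 0.295 RPKM in the controls and 0.187 and 0.275 RPKM in the knockdown libraries, a depth at which a change like that of DERL1 was not detectable.

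Both sensors of the unfolded protein response among the 45 genes were lower, while XBP1 was not called. ATF6, the sensor that is cleaved into a transcription factor, was at 6.55 and 7.18 RPKM in the controls and at 5.06 and 5.22 RPKM in the knockdown libraries (-0.47 ± 0.10, adjusted p = 0.0245). ERN1, which encodes the kinase and nuclease IRE1, was at 3.50 and 4.01 RPKM against 2.88 and 2.68 RPKM (-0.48 ± 0.13, adjusted p = 0.0441). ATF6 was called without control replicate 1 but not without control replicate 2 (0.0872), knockdown replicate 1 (0.0973) or knockdown replicate 2 (0.0672), and ERN1 failed the threshold whichever library was left out (0.0641 to 0.159) and without TMM scaling. XBP1, a target of ATF6 whose messenger RNA IRE1 splices, was at 22.3 and 24.1 RPKM against 22.1 and 23.0 RPKM (-0.10 ± 0.08, adjusted p = 0.376). These gene-level values do not separate the spliced from the unspliced XBP1 message.

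Many chaperone genes carry ER stress elements in their promoters, the sites that ATF6 and XBP1 bind together with the factor NF-Y, and such genes are found both among those that fell and among those not called. Promoter windows of RefSeq (GRCh38.p14, 250 bases before to 50 after each start) were at hand for 42 of the 45 genes, not for PDIA3, DERL1 and DERL3. On either strand, the ER stress element (CCAAT, then 9 free bases, then CCACG) was found in 7 of the 42 (16.7%) and in 0.0916% of 27305 genes. Its second form (ATTGG, then 1 free base, then CCACG) was found in 3 of the 42 and in 0.0696% of all genes. The 45 genes were picked by name and include such chaperone genes, so these shares are a description and not a test. The stretches below, 5′ to 3′ on the strand of the gene with the element in capitals, come from 3 genes that fell and 3 that were not called, so that both kinds can be read side by side.
HSPA5 (lower), chr9:125241351-125241449, minus strand: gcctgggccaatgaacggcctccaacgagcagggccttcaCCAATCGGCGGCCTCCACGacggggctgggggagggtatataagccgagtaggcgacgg
HYOU1 (lower), chr11:119057234-119057430, minus strand: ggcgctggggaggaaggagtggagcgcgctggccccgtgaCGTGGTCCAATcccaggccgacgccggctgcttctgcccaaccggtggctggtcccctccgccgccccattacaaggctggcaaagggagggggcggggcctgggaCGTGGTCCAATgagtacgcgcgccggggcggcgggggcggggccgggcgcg
PDIA6 (lower), chr2:10812845-10812911, minus strand: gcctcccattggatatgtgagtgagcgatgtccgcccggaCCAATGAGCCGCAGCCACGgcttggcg
XBP1 (not called), chr22:28800598-28800661, minus strand: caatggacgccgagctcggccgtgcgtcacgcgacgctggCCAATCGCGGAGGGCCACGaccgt
CRELD2 (not called), chr22:49918514-49918612, plus strand: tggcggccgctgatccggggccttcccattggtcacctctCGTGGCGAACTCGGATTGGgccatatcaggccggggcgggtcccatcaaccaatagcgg
HERPUD1 (not called), chr16:56931985-56932047, plus strand: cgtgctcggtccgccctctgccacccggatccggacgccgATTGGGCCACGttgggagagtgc

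HYOU1 holds the second form at -185 and again at -79 from its start, and both copies, like the element of CRELD2, read as the reverse complement on the strand shown. HSP90B1, which fell, holds the first form at -194 (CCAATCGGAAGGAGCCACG, chr12:103930216-103930234, plus strand) and in reverse at -89 (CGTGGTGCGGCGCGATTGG, chr12:103930321-103930339). CANX, which fell too, holds it at -151 (CCAATCTTCACACTCCACG, chr5:179698778-179698796, plus strand). The HSP90B1 and CANX elements lie inside annotated exons of the deposited tables, whereas the stretches printed above lie outside annotated exons. Those of HSPA5, HYOU1, XBP1 and HERPUD1 are upstream of all exons of their gene. The stretch of PDIA6 lies within the span of its gene (chromosome 2, 10783391 to 10837977). That of CRELD2 does so too (chromosome 22, 49918167 to 49927540). Counted from other starts of CANX, its element is at -9 or -189. CALR and SDF2L1, which were not called, hold the first and the second form. Of the 10 genes with either form, 5 were lower and 5 not called, with log2 fold changes from -0.853 to -0.07 and a median of -0.358. The 32 genes without either form had 15 lower, 3 higher and a median of -0.311. Of all genes tested, 13.8% were lower and 11.1% higher. The element TGACGTG, bound by XBP1 and ATF6, was found in 6 of the 42 windows (DNAJC10, HYOU1, SEC61A1, SEC62, SRP19 and TXNDC5) and in 2.4% of all genes. In HYOU1 this match overlaps the copy at -185. TGATGNAAT, an element bound by ATF4, was found in SRPRB and in 1.22% of all genes. A match to these letters is a description of the window and not a measured binding site.

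The 6 genes of the SEC61 translocon split in direction. SEC61A1 (chromosome 3, 128051641 to 128071683), the pore-forming subunit, was at 69.3 and 71.1 RPKM in the controls and at 47.0 and 45.9 RPKM in the knockdown libraries (-0.66 ± 0.06, adjusted p = 0.00462). SEC61G (chromosome 7, 54752250 to 54759974), the small subunit that clamps the pore, was at 18.0 and 17.0 RPKM in the controls and at 30.7 and 26.2 RPKM in the knockdown libraries (0.63 ± 0.09, adjusted p = 0.00965). Neither gene's groups overlapped, and both calls held whichever library was left out, although SEC61G was not called when no filter on low values was applied. The third subunit, SEC61B, was at 24.0 and 20.3 RPKM against 26.5 and 23.2 RPKM, and its groups overlapped (0.11 ± 0.11, adjusted p = 0.4996). Within each library, the level of SEC61G per kilobase was 0.26 and 0.239 of that of SEC61A1 in the controls and 0.653 and 0.571 of it in the knockdown libraries. That pair was chosen after its values were seen and the ratio was not tested.

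Of the proteins that work beside the channel, SSR1, the alpha subunit of the translocon-associated protein complex, was at 13.7 and 16.0 RPKM in the controls and at 11.1 and 11.2 RPKM in the knockdown libraries (-0.47 ± 0.10, adjusted p = 0.0253). Its call was not kept without control replicate 2 (0.0629), knockdown replicate 1 (0.0895) or knockdown replicate 2 (0.0694). SEC63, the J protein that brings BiP to the channel, was at 8.41 and 9.86 RPKM against 7.84 and 7.45 RPKM (-0.31 ± 0.11, adjusted p = 0.0878, and 0.00778 with limma-voom). Its partner SEC62 was at 7.40 and 9.35 RPKM against 9.13 and 8.30 RPKM, with overlapping groups (adjusted p = 0.994).

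The signal recognition particle and its receptor had a median of 0.162, with 1 of 7 genes lower (14.3%, against 13.8% of all genes tested) and 2 higher (28.6%, against 11.1%). Shares over so few genes are a description and set the group apart from no other. SRP14, which with SRP9 pauses elongation of the bound ribosome, was at 37.3 and 31.4 RPKM in the controls and at 51.6 and 43.9 RPKM in the knockdown libraries (0.41 ± 0.11, adjusted p = 0.0496). SRP68, which binds the particle's RNA, was at 14.2 and 13.1 RPKM against 18.1 and 17.7 RPKM (0.33 ± 0.07, adjusted p = 0.0287). Both knockdown libraries exceeded both controls in these genes, but neither call was kept without control replicate 2 (SRP14 0.149, SRP68 0.0775), knockdown replicate 1 (0.194 and 0.138) or knockdown replicate 2 (0.0556 and 0.118). SRP14 was also not called with a pseudocount of 1 or 0.01 or with robust moderation.

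The partners of those proteins were not called. SRP9 was at 41.5 and 33.8 RPKM in the controls and at 44.9 and 42.7 RPKM in the knockdown libraries (0.16 ± 0.10, adjusted p = 0.3004). SRP72, which dimerises with SRP68, was at 18.3 and 17.5 RPKM against 21.8 and 19.9 RPKM (0.16 ± 0.07, adjusted p = 0.175). SRP54, the GTPase that binds the signal peptide, was at 9.41 and 9.27 RPKM against 11.3 and 10.8 RPKM (0.18 ± 0.08, adjusted p = 0.135). For SRP54 and SRP72 both knockdown libraries lay above both controls, and for SRP9 the groups overlapped after scaling. SRP19, an assembly factor of the particle, was at 2.46 and 1.71 RPKM against 2.12 and 1.50 RPKM (adjusted p = 0.471).

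Genes of the receptor on the ER membrane were lower, whereas SRP14 and SRP68 of the particle were higher. SRPRB, the receptor subunit anchored in the ER membrane, was at 12.7 and 12.5 RPKM in the controls and at 10.7 and 10.5 RPKM in the knockdown libraries (-0.31 ± 0.07, adjusted p = 0.0319). The libraries of each group lay close together, yet with 1 library fewer the adjusted p was 0.0757 to 0.144, and without TMM scaling it was not called. The level of SRP68 was 1.11 and 1.05 times that of SRPRB in the controls and 1.68 times in both knockdown libraries, a pair chosen after its values were seen.

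**Figure D3:**
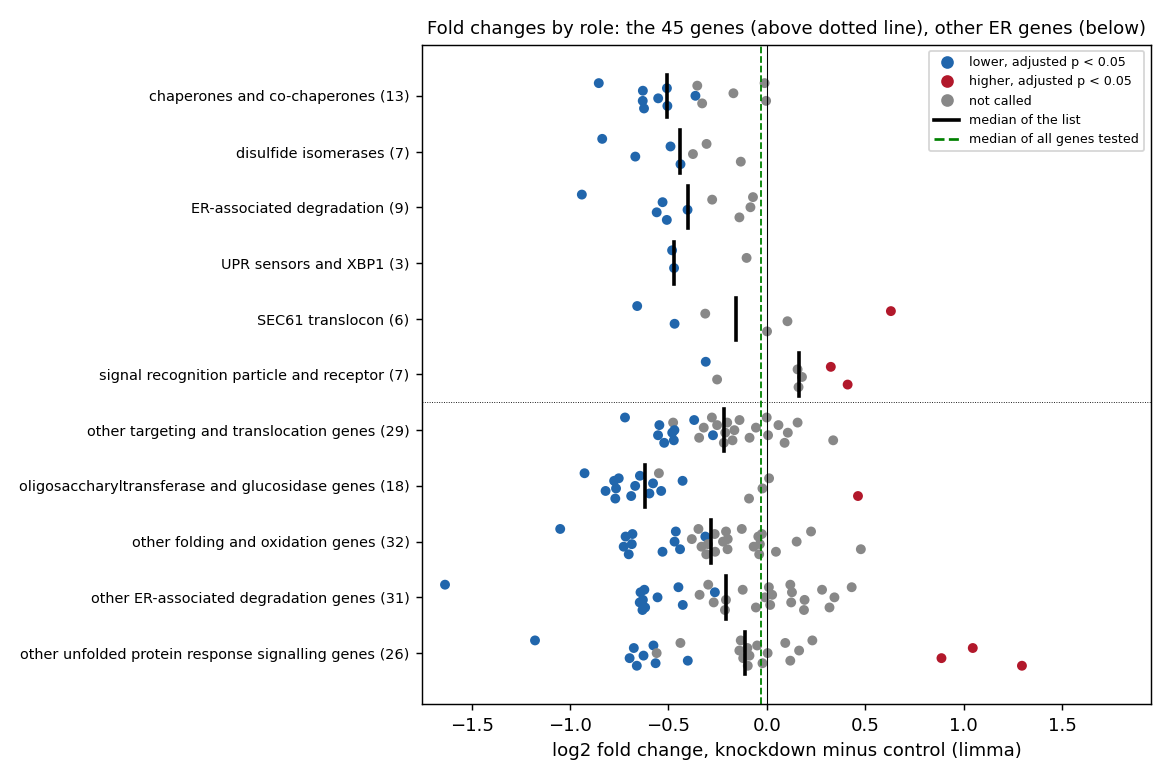
Log2 fold change (x axis, knockdown minus control) of single genes, 1 row for each role of the 45 genes and, below the dotted line, for each list of other ER genes, with the number of genes in brackets; the black bar is the list's median and the green dashed line the median of all genes tested. The oligosaccharyltransferase and glucosidase genes have the lowest median, -0.62, and the signal recognition particle the only positive one, 0.162.

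The other genes of the pathway were taken from 5 lists of 136 ER genes that are not among the 45. Of these, 52 were lower and 4 higher, 38.2% and 2.94%, against 13.8% and 11.1% of all genes tested. Their median log2 fold change was -0.263. N-glycosylation enzymes and glucosidases attach and trim the glycans read by calnexin and the EDEM proteins. Their list held 13 lower and 1 higher of 18 (72.2% and 5.56%). UGGT1, which re-glucosylates unfolded glycoproteins, was at 24.3 and 25.4 RPKM in the controls and at 13.5 and 13.7 RPKM in the knockdown libraries (-0.93 ± 0.07, adjusted p = 0.00369). RPN2, an oligosaccharyltransferase subunit, was at 101 RPKM in both controls against 60.0 and 59.5 RPKM (-0.82 ± 0.06, adjusted p = 0.00369). STT3B, a catalytic subunit, was at 43.2 and 44.3 RPKM against 27.5 and 26.7 RPKM (-0.75 ± 0.06, adjusted p = 0.00415). OST4, the smallest subunit, rose from 48.8 and 40.5 RPKM to 65.3 and 62.9 RPKM (0.46 ± 0.10, adjusted p = 0.0252). OST4 was not called without knockdown replicate 1 (0.0940) or 2 (0.0721).

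Of 29 other targeting and translocation genes 9 fell (31%) and none rose, against 13.8% and 11.1% of all genes tested. EMC1 and EMC3, of the complex that inserts membrane proteins, were at 12.9 and 13.8 RPKM and at 18.6 and 18.2 RPKM in the controls. In the knockdown libraries EMC1 was at 8.39 and 8.41 RPKM (-0.72 ± 0.08, adjusted p = 0.00585) and EMC3 at 12.9 and 13.3 RPKM (-0.55 ± 0.07, adjusted p = 0.00696). SSR2, which partners SSR1, was at 25.5 and 25.8 RPKM against 18.6 and 18.7 RPKM (-0.52 ± 0.07, adjusted p = 0.00689). Of 32 other folding and oxidation genes 11 fell (34.4%) and none rose, with a median of -0.282. QSOX2, a sulfhydryl oxidase, fell by 1.05 ± 0.08 on the log2 scale (adjusted p = 0.00369), TMX2, a membrane thioredoxin, by 0.70 ± 0.07 (adjusted p = 0.00453) and KDELR1, the receptor that returns escaped BiP and isomerases to the ER, by 0.68 ± 0.07 (adjusted p = 0.00462).

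Among 31 other degradation genes 11 fell (35.5%) and none rose, against 13.8% and 11.1% of all genes tested. ERLIN1, which recruits a ligase to inositol trisphosphate receptors and other membrane clients, was at 8.32 and 8.91 RPKM in the controls and at 2.88 and 2.78 RPKM in the knockdown libraries (-1.63 ± 0.10, adjusted p = 0.00298). VCP, the ATPase that pulls clients from the membrane, fell by 0.63 ± 0.06 (adjusted p = 0.00501) and RNF103, an ER ubiquitin ligase, by 0.62 ± 0.07 (adjusted p = 0.00647). The 26 other genes of unfolded protein response signalling had 8 lower (30.8%) and 3 higher (11.5%, against 11.1% of all genes tested). MBTPS1, the protease that cleaves ATF6 in the Golgi, fell by 0.63 ± 0.08 (adjusted p = 0.00691), ATF6B, its paralogue, by 0.58 ± 0.08 (adjusted p = 0.00924) and TMBIM6, a membrane inhibitor of IRE1, by 0.56 ± 0.09 (adjusted p = 0.0125; 0.0569 without knockdown replicate 1). PPP1R15A (GADD34), which directs dephosphorylation of eIF2 alpha, rose from 27.3 and 30.9 RPKM to 75.8 and 73.6 RPKM (1.297 ± 0.09, adjusted p = 0.00314). The ER-anchored transcription factors CREB3L1 and CREB3L3 rose by 1.05 ± 0.11 (adjusted p = 0.00553) and 0.89 ± 0.14 (adjusted p = 0.0113). The kinase gene EIF2AK3 (PERK) and the stress factor DDIT3 (CHOP) were not called, at -0.10 and 0.00 on the log2 scale, and their groups overlapped. ATF4, the transcription factor translated when PERK is active, was at 65.4 and 60.9 RPKM in the controls and at 78.4 and 76.5 RPKM in the knockdown libraries (0.23 ± 0.07, adjusted p = 0.0562). Its groups did not overlap, and it was called higher with limma-voom (0.0146) and with the exon length trend removed (0.0492). CHAC1 of the same list was called lower (-1.18 ± 0.29, adjusted p = 0.0369) but rested on 12 to 71 reads a library. PPP1R15B was called lower as well (-0.40 ± 0.07, adjusted p = 0.0158). EIF2AK3, DDIT3, ATF4, CHAC1 and PPP1R15B were named after their values were seen.

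Exon length and overlap with other genes moved with the calls. The median annotated exon length was 5983 bp for the 22 genes that fell, 2005 bp for the 3 that rose and 3850 bp for the 20 not called. Over all genes tested, the 2024 with the shortest exons had 13.4% lower and 16.4% higher, and the 2021 with the longest had 15.7% lower and 6.04% higher. With the trend along exon length removed, 2501 of all genes tested were lower and 2581 higher, so the larger count passed from lower to higher. Under that setting 19 of the 45 were lower and 3 higher, and HSP90B1, ERN1 and SRPRB were no longer called. SRP68, with long exons, and SEC61G and SRP14, with short ones, were still called higher. Exons of 25 of the 45 genes overlap those of another gene, in 7 of them over more than 10% of their length: TXNDC5, PDIA6 (25.2%), DNAJB11 (23.2%), SRP19 (20.2%), PDIA3 (18.9%), ERP29 (17.5%) and PDIA5 (12.2%). Among the 20 genes with no overlap 7 were lower (35%) and 3 higher (15%), against 13.8% and 11.1% of all genes tested. Their median was -0.19. The part that reads of overlapping genes play in the lower calls was not tested. HSPA5 and EDEM3 are among the genes with no overlap.

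**Figure D4:**
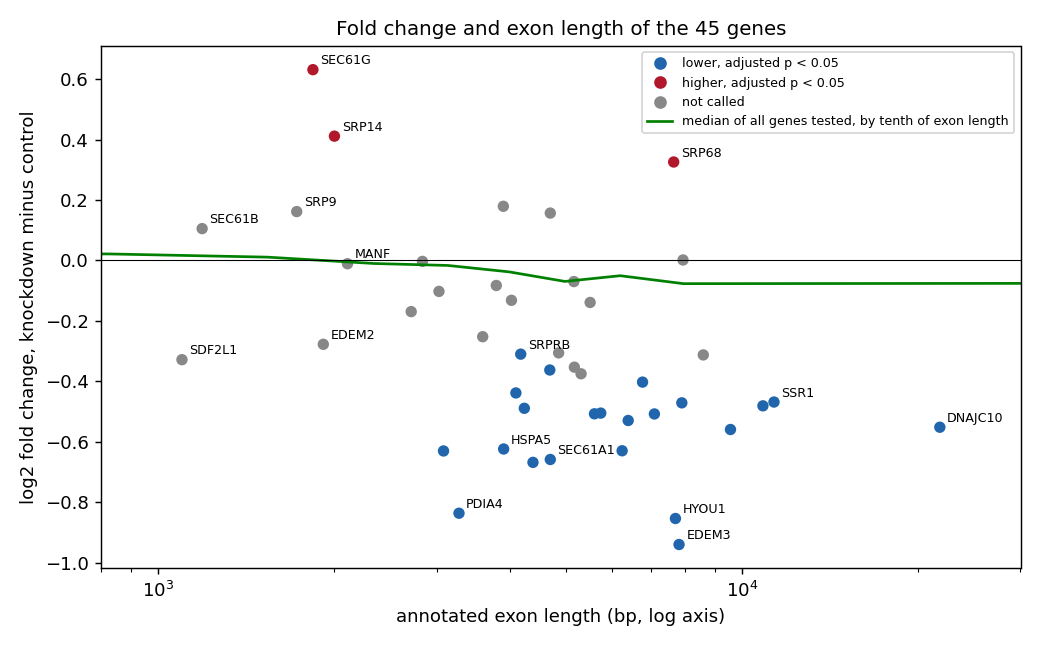
Log2 fold change (y axis, knockdown minus control) against annotated exon length (x axis, bp, log scale) for the 45 genes, coloured by call, with the median of all genes tested in each of 10 bins of exon length as the green line. SEC61G and SRP14 have short exons, SRP68 does not, and the genes that fell lie well below the green line.

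Which of the 25 calls rest on single libraries differed by gene. The calls of HSPA5, HYOU1, ERP29, PDIA4, TXNDC5, SEL1L, EDEM3, SEC61A1 and SEC61G, 9 of 25, held with each of the 4 libraries left out in turn. The first 8 of these were also called under each of the 14 alternative settings. With 1 library fewer, 8 to 17 genes were called lower and 1 to 3 higher, the fewest without knockdown replicate 2 (8 lower, 1 higher). With limma-voom on the recovered reads 27 were lower and 3 higher, against 19.6% and 16.2% of all genes tested.

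**Figure D5:**
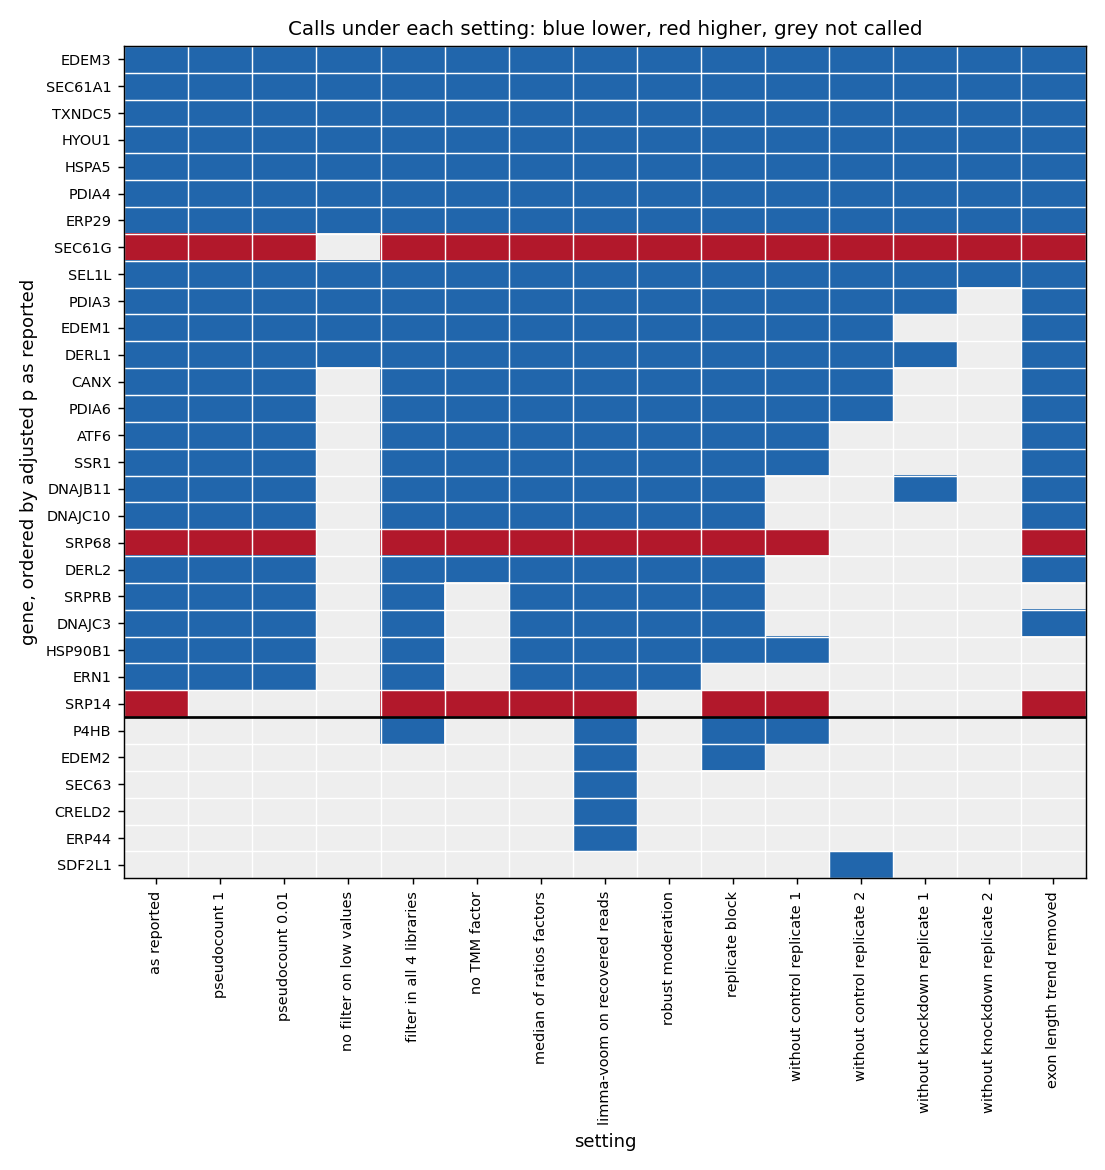
Call of each gene (rows, ordered by adjusted p as reported) under the reported setting and each alternative (columns); blue is lower, red higher and grey not called, and the black line separates the 25 genes called as reported from 6 called in an alternative alone. The 8 rows that are blue throughout are EDEM3, SEC61A1, TXNDC5, HYOU1, HSPA5, PDIA4, ERP29 and SEL1L.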

How the data were processed

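The authors deposited 1 RPKM value per gene name and library. RPKM times exon length showed 100% of values to be whole multiples of 1 read, within 0.01, which gave the depths. The submitters' processing notes name Trimmomatic 0.36, Subread 1.5.1, featureCounts, StringTie 1.3.2, edgeR 3.12.1 and the build mm9, but the coordinates are those of human GRCh38 (identical start and end for 43 of the 45 genes). Per the labels' protocols the kit was stranded and used molecular identifiers; the sources used here do not give the aligner, the counting strand or the use of the identifiers. Values were divided by TMM factors, and log2(RPKM + 0.1) was tested two-sided with limma 3.58.1 (R 4.3.3) with Benjamini-Hochberg adjustment over 20221 genes that reached the equivalent of 10 reads at median depth in at least 2 libraries and 15 reads in all. This scale makes changes of low genes look smaller than they are. The fit had 2 residual degrees of freedom. The tests were also run on simulated data with few genes changed and no TMM scaling, so that run does not check these calls. The text names HNRNPM, all 45 genes, cell type markers and up to 3 called genes a list and direction by adjusted p. It also names SRPRA, EIF2AK3, DDIT3, ATF4, CHAC1 and PPP1R15B, which were chosen after their values were seen. The genes and lists were chosen with earlier results of these data known. Protein sequences were not analysed here.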

Additional observations from a re-analysis of the deposited data

How the results depend on the processing

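With no filter on low values 1113 genes were lower and 693 higher (2792 and 2240 as reported), 11 and 0 of the 45 genes (22 and 3) and 30 and 2 of the 136 other ER genes (52 and 4). Leaving out 1 library in turn gave 1322 to 1690 genes lower and 968 to 1531 higher, 8 to 17 and 1 to 3 of the 45, and 32 to 43 and 3 to 4 of the 136. Counting only the 20 of the 45 genes without exon overlap, 7 were lower. Of the 136 other genes, 7 were higher with the filter in all 4 libraries, 8 without TMM factors, 10 with limma-voom and 7 with the exon length trend removed. Fewer libraries leave fewer degrees of freedom, and an unfiltered table is adjusted over more genes; other causes were not tested. Among the 45 genes no called gene reversed direction in these alternatives, and genes that were not called changed sign 17 times. Same-numbered libraries were not paired by the labels (correlation of their deviations 0.0628). With the replicate block 2781 genes were lower and 2348 higher, 23 and 3 of the 45 genes; ERN1 was no longer called and P4HB and EDEM2 were. With 2 libraries a group, changes of low genes such as DERL3 and SRP19 could not be measured well.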
